A study of Homo sapiens with 17 samples.

Results

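Cultures given Nala were compared with cultures given 2-DG by RNA-seq, and the genes described are all those at 1 RPKM or more in at least 3 of the 6 libraries of these groups. RPKM is the number of reads scaled to the length of the gene model and to the total of the library. The table held 17808 genes, of which 12684 passed and 5124 did not. The filter left 435 genes in by the smallest margin, at 1 RPKM or more in exactly 3 libraries, and for 314 of these the 3 libraries were the whole of 1 group. Their highest library had a median of 2.08 RPKM, and the 306 genes just outside, with 2 such libraries, had a median of 1.52 RPKM there.

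The labels name the cells HepG2, an established line from a hepatocellular carcinoma, and the study concerned their response to a metabolite stress, with lactate, histone lactylation and BRD9 in its title. Nala cultures had 40 mM of the agent the labels write as Nala, which they do not spell out, and 2-DG cultures had 40 mM of 2-DG, the usual short name of 2-deoxyglucose. NC cultures, the negative control, had neither and are set beside both. The treatment label of Nala replicate 1 is garbled, and its group rests on its library name and title. Each group had 3 libraries, which the design calls biological replicates, the genotype is given as WT in all, and no other treatment is named. Titles give 48 h for Nala and for 2-DG and 24 h for NC, and the series design gives 24 h for Nala and 48 h for 2-DG. Whether Nala and 2-DG cultures ran for the same time therefore cannot be told from the labels, and time cannot be told apart from treatment.

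Totals ran from 6199778 to 6653130 counted reads per library, and the highest value was 229.6 RPKM. Nala replicates 2 and 3 agreed within sampling noise over all genes together (chi-square per degree of freedom 0.923, against 2.12 to 9.89 for the other pairs within a group). They were averaged and counted as 1 sample, so that the test rests on 2 samples of Nala, 3 of 2-DG and 3 of NC. Replicate 1 of Nala therefore has as much weight as the averaged pair. Of the 32 hepatocyte marker genes listed, 16 were in the table and 7 of those were under 1 RPKM in all 9 libraries, among them APOB, the lipoprotein scaffold, at 0 to 0.0106 RPKM in the Nala libraries and 0 in the 2-DG libraries. The remaining 16, which include albumin, were not analysed here. The hepatocyte gene VTN, vitronectin, stood at 39.21 to 44.99 RPKM in Nala libraries and at 9.94 to 21.35 RPKM in 2-DG libraries. KRT7, a keratin of duct epithelium, stood at 121 to 130 RPKM in Nala libraries and at 110 to 126 RPKM in 2-DG libraries. Of the 9 ductal genes in the table, however, 3 were under 1 RPKM in all 9 libraries, KRT19, SOX9 and CFTR.

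2-DG is a glucose analogue that hexokinase traps as a phosphate and that glycolysis does not carry further. It also enters the sugar chains built for N-linked glycosylation in place of mannose, so that glycoproteins fold poorly in the endoplasmic reticulum (ER). Cells answer misfolded ER proteins through the sensors PERK, IRE1 and ATF6. PERK is also an arm of the integrated stress response, in which phosphorylated eIF2 lowers general translation while the factor ATF4 is made and switches on amino acid and stress genes. The factor p53 holds dividing cells, and the genes of DNA replication and mitosis are then lowered through E2F and DREAM repressor complexes. A rise in solute outside the cell is answered by NFAT5, which raises transporters and enzymes for organic osmolytes.

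The groups differed widely. By limma on log2(RPKM + 1), 4646 of the 12684 genes, 36.6%, differed between Nala and 2-DG at an adjusted p under 0.05, and such genes are called below. Nala was higher for 2303 of them, 18.2%, and lower for 2343, 18.5%. A difference of at least 2-fold was found for 1031 genes, 8.13%, of which 647 (5.1%) were higher in Nala and 384 (3.03%) lower. At an unadjusted p under 0.05 there were 5920 genes, 46.7%. Libraries of the groups did not overlap for 7441 genes, 58.7%, with Nala above 2-DG for 28.9% of all genes and below it for 29.8%. The median difference, Nala minus 2-DG, over all genes was -0.01 and the middle 80% lay between -0.60 and 0.69, with a median standard error of 0.139. Without Nala replicate 1 the count fell to 2255, with 1215 higher and 1040 lower, while the count past 2-fold stood at 938.

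Many other genes were close between the groups. For 5811 genes, 45.8%, the 95% interval of the difference lay within 1.5-fold either way, and 581 of these, 4.58% of all genes, were called all the same. Nala was called different from NC for 17 genes, 0.134%, none of them lower, and 11 of them, 0.0867%, at least 2-fold. 2-DG was called different from NC for 5557 genes, 43.8%, with 23.1% of all genes higher in 2-DG and 20.7% lower. The NC mean lay nearer to Nala than to 2-DG for 2151 of the 2303 genes higher in Nala (93.4%). It did so for 2231 of the 2343 lower (95.2%) and for 10132 of all 12684 genes. These comparisons share libraries, so the counts describe where NC lay and are no separate evidence. Some 264 of the higher and 247 of the lower genes were called against NC in neither group.

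**Figure D1:**
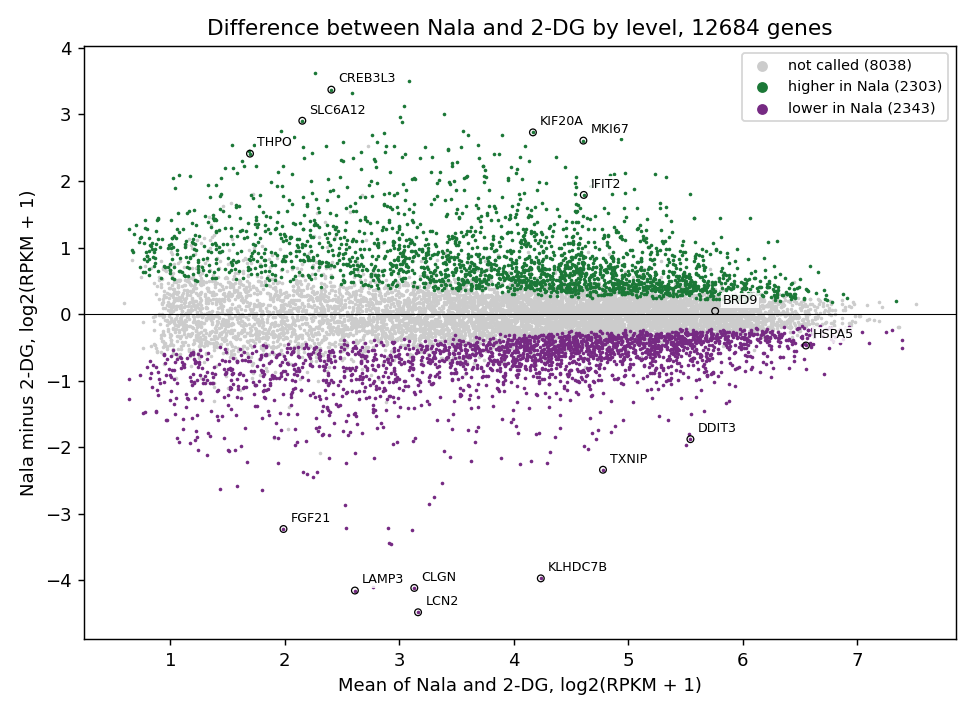
Difference between Nala and 2-DG, on the log2(RPKM + 1) scale, against the mean of both groups on the same scale, for 12684 genes. Green points are the 2303 called genes higher in Nala, purple points the 2343 lower and grey points those not called. The largest differences reach -4.48 for LCN2, while BRD9 lies near 0.

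Genes of cell division were higher in Nala than in 2-DG almost throughout. Of 70 mitosis genes listed, 68 passed the filter and were tested, as only such members are in the lists below, and a gene could pass through 1 group alone. These 68 were higher in Nala, with a median of 1.92 on the log2(RPKM + 1) scale, against 18.2% of all genes higher and a median of -0.01. Spindle motors and assembly factors had a median of 2.1 (16 of 16), kinetochore genes 2.07 (13 of 13), kinases and entry factors 1.86 (18 of 18) and the genes of exit and cohesion 1.67 (21 of 21). Differences ran between 0.38 for WEE1, the kinase that restrains CDK1, and 2.75 for DLGAP5, a spindle microtubule protein. Without Nala replicate 1, 66 of the 68 were called, and WEE1 (adjusted p = 0.0965) and DSN1 (adjusted p = 0.0573), a kinetochore subunit, were not. In bulk RNA, fewer cells of a kind and less RNA per cell cannot be told apart.

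KIF20A, the kinesin of the late spindle midzone at chr5:138179112-138187723 of GRCh38.p14, had 45.3, 44.9 and 45.4 RPKM in Nala libraries, against 5.44, 5.68 and 6.84 RPKM in 2-DG libraries. NC libraries had 51.1, 56.5 and 55.5 RPKM. The Nala and NC libraries both stood far above the 2-DG libraries, and Nala minus 2-DG was 2.73 (standard error 0.11, limma adjusted p = 3.8e-06). DLGAP5 had 31.96, 26.5 and 27 RPKM in Nala libraries, against 3.504, 2.88 and 4.22 RPKM in 2-DG libraries, and KIF14, a kinesin of cytokinesis, had 19.5, 15.9 and 16.01 RPKM in Nala libraries, against 1.596, 1.83 and 2.05 RPKM in 2-DG libraries. For both genes the lowest Nala library was more than the sum of the 3 2-DG libraries. CDK1, the kinase that drives entry into mitosis, had 50.05, 47.2 and 46.9 RPKM in Nala libraries, against 11.9, 11.4 and 13.04 RPKM in 2-DG libraries, a difference of 1.92 (standard error 0.088, limma adjusted p = 3.8e-06). MKI67, the proliferation antigen Ki-67, had 62.5, 54.4 and 54.6 RPKM in Nala libraries, against 11.5, 6.25 and 9.22 RPKM in 2-DG libraries, with 2-DG replicate 1 the highest of its group and a difference of 2.61 (standard error 0.19, limma adjusted p = 1.9e-05). KIF20A overlaps CDC23 in the annotation, and no source used here says whether the authors counted by strand.

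Mitotic genes often hold in their promoters a cell cycle homology region (CHR), TTTGAA or TTCGAA, which DREAM and its relatives read. Searched on both strands from 250 bases before to 50 after the start, it stood in 39 of the 55 tested mitosis promoters in the RefSeq table, 70.9%, against 10.9% of the 9891 promoters of tested genes. It stood in 16.2% of promoters of genes called higher in Nala and in 8.66% of those called lower. A match is only a match of letters. The windows of DLGAP5 and KIF14, 2 of the 3 genes of the list farthest apart, are shown 5′ to 3′ on the gene's strand with the matches in capitals.
DLGAP5 chr14:55191547-55191753 (minus strand): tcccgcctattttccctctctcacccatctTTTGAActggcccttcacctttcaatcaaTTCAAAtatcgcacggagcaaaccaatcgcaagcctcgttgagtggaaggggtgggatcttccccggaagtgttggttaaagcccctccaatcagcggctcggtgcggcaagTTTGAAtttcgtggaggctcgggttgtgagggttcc
KIF14 chr1:200620715-200620780 (minus strand): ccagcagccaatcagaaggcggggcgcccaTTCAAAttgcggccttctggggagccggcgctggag

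DNA replication genes were higher in Nala as well, but less far apart, with 48 of 53 called, none lower, and a median of 0.89. Of all genes 18.2% were called higher. The licensing and helicase genes were called throughout (18 of 18, median 0.81), beside 18 of 20 polymerase and fork genes (0.85), 6 of 7 nucleotide genes (0.66) and 6 of 8 G1/S regulators (1.18). MCM7, a subunit of the replicative helicase, had 88.4, 87.3 and 90.2 RPKM in Nala libraries, against 73.7, 63.9 and 69.9 RPKM in 2-DG libraries, a difference of 0.36 (standard error 0.074, limma adjusted p = 0.00542). RRM2, the regulated subunit of ribonucleotide reductase, had 48.6, 44.3 and 44.8 RPKM in Nala libraries, against 10.1, 8.86 and 12.6 RPKM in 2-DG libraries, and differed by 2.06 (standard error 0.13, limma adjusted p = 9.6e-06). MCM10, which helps to open the helicase, had 28.7, 25.6 and 27.4 RPKM in Nala libraries, against 5.49, 4.09 and 5.88 RPKM in 2-DG libraries. MCM7 thus differed far less than RRM2 and MCM10. LIG1, RPA2, DUT, E2F7 and CCND1 were not called, and LIG1, the ligase of the lagging strand, was called without 2-DG replicate 1 (adjusted p = 0.0252).

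The E2F factors themselves spanned this range. E2F8, a repressive member, had 11.98, 11.2 and 11.2 RPKM in Nala libraries, against 1.26, 1.52 and 1.79 RPKM in 2-DG libraries, a difference of 2.32 (standard error 0.15, limma adjusted p = 1.2e-05). E2F2, an activating member, had 20.6, 22.7 and 20.6 RPKM in Nala libraries, against 5.37, 3.03 and 5.497 RPKM in 2-DG libraries, a difference of 2.01 (standard error 0.21, limma adjusted p = 0.00013), and E2F1 had 50.1, 57.9 and 55.6 RPKM in Nala libraries, against 31.3, 22.8 and 30.9 RPKM in 2-DG libraries, a difference of 0.90 (standard error 0.13, limma adjusted p = 0.0009). E2F7, the close relative of E2F8, had 24.1, 23.01 and 24.5 RPKM in Nala libraries, against 18.1, 26.9 and 23.1 RPKM in 2-DG libraries, which overlapped, a difference of 0.09 (95% interval -0.24 to 0.43, limma adjusted p = 0.665). The E2F site, TTTGGCGC or TTTCGCGC, stood in 12 of 44 tested replication promoters, 27.3%, in 3 of 55 mitosis promoters, 5.45%, and in 1.99% of all 9891. The window of E2F2 is shown, a factor whose own promoter holds the site.
E2F2 chr1:23531238-23531305 (minus strand): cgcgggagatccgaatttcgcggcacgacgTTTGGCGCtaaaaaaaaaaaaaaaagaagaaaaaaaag

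DNA repair genes of the homologous recombination and Fanconi pathways followed, with 16 of 18 higher in Nala and none lower. Of all genes 18.2% were higher, and the median of the list was 1.44. BLM, the helicase lost in Bloom syndrome, had 18.9, 14.9 and 14.6 RPKM in Nala libraries, against 3.68, 2.64 and 3.73 RPKM in 2-DG libraries, a difference of 2.03 (standard error 0.16, limma adjusted p = 2.8e-05). No Nala library of BLM came within 10 RPKM of a 2-DG library. PALB2 and XRCC3 were the 2 members not called. The proteins of replication-dependent histones are mostly coded by RNAs with no poly(A) tail. Of 12 such genes tested 1 was higher in Nala and 4 were lower, against 18.2% and 18.5% of all genes. Their median was -0.47. Of those 4, 1 was called without Nala replicate 1 and 8 members were lower without 2-DG replicate 1, and the 1 higher became 2 without 2-DG replicate 3.

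**Figure D2:**
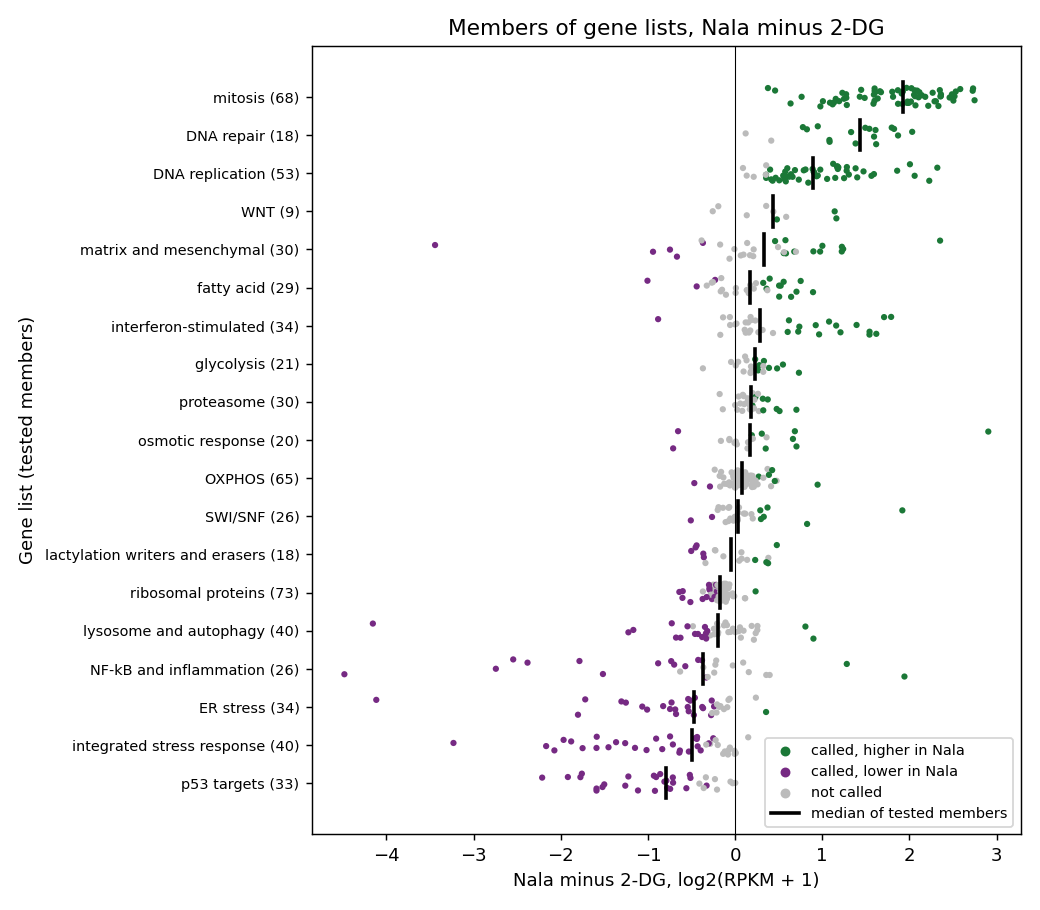
Nala minus 2-DG on the log2(RPKM + 1) scale for the tested members of 19 gene lists, whose number is given in brackets. Each point is a gene, green where it was called higher in Nala, purple where it was called lower and grey where it was not called, and black bars are medians. Mitosis lies wholly to the right at a median of 1.92, and p53 targets lie to the left at -0.79.

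Targets of p53 were lower in Nala than in 2-DG. Of 33 tested members 25 were lower and none higher, with a median of -0.79, against 18.5% of all genes lower. The genes of arrest (6 of 9), of death (8 of 9) and of repair, metabolism and feedback (11 of 15) all took part. TP53INP1, a stress protein that feeds back on p53, had 6.27, 8.76 and 7.84 RPKM in Nala libraries, against 36.2, 39.9 and 35.4 RPKM in 2-DG libraries, a difference of -2.21 (standard error 0.22, limma adjusted p = 0.00011). MDM2, the ligase that degrades p53, had 25.9, 28.1 and 27.3 RPKM in Nala libraries, against 77.8, 82.1 and 73.1 RPKM in 2-DG libraries, a difference of -1.50 (standard error 0.083, limma adjusted p = 4.6e-06), and BBC3, the death protein PUMA, had 9.91, 13.6 and 12.5 RPKM in Nala libraries, against 29.4, 37.5 and 37.3 RPKM in 2-DG libraries. The lowest 2-DG library of each of these 3 genes was at least 2-fold above the highest Nala library. CDKN1A, the cell cycle inhibitor p21, had 52.5, 73.8 and 74.4 RPKM in Nala libraries, against 104, 118 and 109 RPKM in 2-DG libraries. Its Nala replicate 1 was the lowest of the 9 libraries but for NC replicate 2, and the difference of -0.81 (standard error 0.17, limma adjusted p = 0.00485) was not called without it (adjusted p = 0.0605). SFN and PLK2, also p53 targets, had intervals within 1.5-fold, at differences of -0.03 (95% interval -0.29 to 0.24, limma adjusted p = 0.879) and 0.00 (95% interval -0.35 to 0.36, limma adjusted p = 0.991).

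Genes of the integrated stress response were lower in Nala than in 2-DG for 27 of 40, against 18.5% of all genes. None was higher, and the median was -0.49. Against NC, 28 of them were called higher in 2-DG (median 0.58) and 0 were called in Nala (median 0.06). Among the factors of this response 7 of 8 were lower in Nala than in 2-DG, with a median of -1.08. ATF4 itself, which is mainly set by translation, differed by -0.44 (standard error 0.091, limma adjusted p = 0.00512), with 47.4, 46.7 and 50.1 RPKM in Nala libraries, against 67.7, 65.5 and 62.8 RPKM in 2-DG libraries. DDIT3, the factor CHOP, had 22.6, 21.97 and 26.03 RPKM in Nala libraries, against 85.8, 92.6 and 86.9 RPKM in 2-DG libraries, a difference of -1.88 (standard error 0.16, limma adjusted p = 4.5e-05). PPP1R15A, which brings the phosphatase back to eIF2, had 23.1, 19.96 and 21.9 RPKM in Nala libraries, against 87.4, 94.2 and 85.2 RPKM in 2-DG libraries, a difference of -1.97 (standard error 0.14, limma adjusted p = 1.6e-05). The 2-DG libraries of both stood more than 2-fold above every Nala and NC library. DDIT3 overlaps MARS1 in the annotation.

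Secreted and cysteine-related products of this response were the farthest apart, with 6 of 6 lower and a median of -1.67. FGF21, a hormone of the fasting liver, had 0.473, 0.2303 and 0 RPKM in Nala libraries, against 8.76, 12.99 and 11.8 RPKM in 2-DG libraries, and NC libraries had 0, 0.234 and 0.123 RPKM. These are 4, 2 and 0 reads in the Nala libraries, so the difference of -3.23 (standard error 0.21, limma adjusted p = 1.2e-05) depends on the added 1 RPKM. CHAC1, which breaks down glutathione, had 8.53, 7.33 and 10.02 RPKM in Nala libraries, against 29.9, 49.6 and 41.2 RPKM in 2-DG libraries, a difference of -2.07 (standard error 0.43, limma adjusted p = 0.00511). GDF15, a circulating stress hormone, had 68.2, 83.5 and 82.8 RPKM in Nala libraries, against 154, 138 and 135 RPKM in 2-DG libraries, a difference of -0.91 (standard error 0.10, limma adjusted p = 0.00014). FGF21 was thus near 0 outside 2-DG, whereas GDF15 was above 60 RPKM in every Nala library. Amino acid synthesis (6 of 11) and transport (5 of 9) were less complete: ASNS, asparagine synthetase, differed by -1.36 (standard error 0.17, limma adjusted p = 0.0003) and PHGDH, which opens serine synthesis, by -0.06 (95% interval -0.23 to 0.11, limma adjusted p = 0.566).

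The binding site of ATF4 with C/EBP partners (CARE), TTGCATCA, was found in 2 of 32 tested promoters of this list, 6.25%, in 6 of 16 promoters of aminoacyl-tRNA synthetases, 37.5%, and in 0.455% of all 9891. Both matches of the list are in the genes just described, and their windows are shown with the match in capitals.
FGF21 chr19:48755440-48755507 (plus strand): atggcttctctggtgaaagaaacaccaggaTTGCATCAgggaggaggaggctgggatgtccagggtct
CHAC1 chr15:40953232-40953299 (plus strand): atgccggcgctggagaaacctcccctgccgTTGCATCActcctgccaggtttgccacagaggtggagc

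Aminoacyl-tRNA synthetases, which charge tRNAs and which ATF4 raises in part, were lower in Nala for 8 of 19 and higher for 1. Of all genes 18.5% were lower and 18.2% higher, and the median of the list was -0.16. SARS1, for serine, had 62.2, 62.6 and 64.5 RPKM in Nala libraries, against 91.98, 103 and 102 RPKM in 2-DG libraries, a difference of -0.65 (standard error 0.085, limma adjusted p = 0.00049), and AARS1, for alanine, differed by -0.44 (standard error 0.069, limma adjusted p = 0.00125). FARSB, the member higher in Nala, differed by 0.44 (standard error 0.15, limma adjusted p = 0.0426) and was not called without Nala replicate 1 (adjusted p = 0.232), NC replicate 3 (adjusted p = 0.0644), 2-DG replicate 1 (adjusted p = 0.0854) or 2-DG replicate 2 (adjusted p = 0.0791). The 8 fell to 4 without Nala replicate 1.

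ER stress genes were lower in Nala for 23 of 34 members and higher for 1, against 18.5% and 18.2% of all genes. Their median was -0.47. Chaperones and cofactors were lower for 10 of 12, the degradation pathway for 7 of 9 (median -0.69) and the sensors and their factors for 5 of 7 (median -0.51), but disulfide enzymes for 1 of 6. CLGN, a calnexin relative best known from testis, had 1.43, 0.4799 and 1.119 RPKM in Nala libraries, against 37.5, 37.2 and 31.3 RPKM in 2-DG libraries, a difference of -4.12 (standard error 0.22, limma adjusted p = 4.6e-06). ERN1, the sensor IRE1, had 10.7, 11.6 and 9.61 RPKM in Nala libraries, against 39.8, 35.9 and 36.3 RPKM in 2-DG libraries, a difference of -1.72 (standard error 0.15, limma adjusted p = 4.8e-05). HERPUD1, of the degradation complex, had 36.2, 37.1 and 36.2 RPKM in Nala libraries, against 94.8, 89.97 and 89.6 RPKM in 2-DG libraries. The abundant chaperone HSPA5, known as BiP, was less far apart, with 79.6, 76.8 and 77.9 RPKM in Nala libraries, against 124, 106 and 99.3 RPKM in 2-DG libraries, a difference of -0.47 (standard error 0.10, limma adjusted p = 0.00492). ERO1A, an oxidase of disulfide formation that hypoxia also raises, was the member higher in Nala, by 0.36 (standard error 0.11, limma adjusted p = 0.0305), but its libraries overlapped and without Nala replicate 1 the adjusted p was 0.251. No member was called higher without Nala replicate 2, 2-DG replicate 2 or 2-DG replicate 3 either, and 2 were without 2-DG replicate 1.

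The ER stress response element (ERSE), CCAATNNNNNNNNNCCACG, which ATF6 reads with the CCAAT factor NF-Y, stood in 7 of 31 tested promoters of the list, 22.6%, and in 0.142% of all 9891. HSPA5 is the gene in which the element is best known. XBP1, whose RNA IRE1 splices, had 54.4, 52.6 and 53.6 RPKM in Nala libraries, against 79.5, 76.7 and 75.2 RPKM in 2-DG libraries, a difference of -0.51 (standard error 0.069, limma adjusted p = 0.00056). The window of each is shown on the gene's strand.
HSPA5 chr9:125241361-125241439 (minus strand): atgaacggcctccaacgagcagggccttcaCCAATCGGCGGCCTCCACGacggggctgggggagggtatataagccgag
XBP1 chr22:28800573-28800651 (minus strand): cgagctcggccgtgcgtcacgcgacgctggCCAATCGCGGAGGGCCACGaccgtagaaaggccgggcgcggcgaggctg

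N-glycosylation genes were lower in Nala for 11 of 39 and higher for 5, against 18.5% and 18.2% of all genes. Their median was -0.11. Of the lower genes GFPT1, which opens the hexosamine pathway that feeds glycosylation, had 24.6, 21.5 and 21.9 RPKM in Nala libraries, against 50.1, 53.9 and 52.1 RPKM in 2-DG libraries, a difference of -1.14 (standard error 0.088, limma adjusted p = 2.8e-05). ALG2, a mannosyltransferase of the lipid-linked chain, had 16.1, 16.7 and 16.4 RPKM in Nala libraries, against 32.9, 34.1 and 34.8 RPKM in 2-DG libraries, a difference of -1.01 (standard error 0.093, limma adjusted p = 6.3e-05). TUSC3, a subunit of the oligosaccharyltransferase, was higher, with 29.2, 29.2 and 27.6 RPKM in Nala libraries, against 16.4, 14.6 and 13.4 RPKM in 2-DG libraries and a difference of 0.92 (standard error 0.16, limma adjusted p = 0.00222). The pathway thus held genes near 2-fold apart in both directions. Leaving out Nala replicate 1, the 11 fell to 5 and the 5 to 1, and without 2-DG replicate 2 the 11 fell to 7.

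Glycolysis genes lay slightly higher in Nala, with 9 of 21 called, none lower and a median of 0.23. Of all genes 18.2% were called higher. Of the 9, 1 was called without Nala replicate 1. HK1, a hexokinase, which traps 2-DG, had 74.6, 73.5 and 72.2 RPKM in Nala libraries, against 50.4, 53.5 and 53.5 RPKM in 2-DG libraries, a difference of 0.48 (standard error 0.081, limma adjusted p = 0.00187). PKM, pyruvate kinase, had 131, 128 and 132 RPKM in Nala libraries, against 109, 109 and 111 RPKM in 2-DG libraries, a difference of 0.25 (standard error 0.057, limma adjusted p = 0.00877) that missed the threshold without Nala replicate 1 (adjusted p = 0.0712). LDHA, the lactate dehydrogenase subunit that favours lactate, had 86.9, 84.9 and 86.9 RPKM in Nala libraries, against 64.9, 68.2 and 69.3 RPKM in 2-DG libraries, a difference of 0.35 (standard error 0.069, limma adjusted p = 0.00398). No Nala library of these 3 genes overlapped a 2-DG library, which held with Nala higher for 28.9% of all genes. None of the 3 differences reached 1.5-fold. HK2, the hexokinase of many tumours, was not called, at -0.37 (95% interval -0.81 to 0.08, limma adjusted p = 0.175).

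Lactate and pyruvate genes were higher in Nala for 3 of 25 and lower for 2, with a median of 0.09. Both counts lay below the shares of all genes, 18.2% higher and 18.5% lower. MPC1, of the carrier that takes pyruvate into mitochondria, had 6.61, 8.97 and 8.397 RPKM in Nala libraries, against 21.97, 27.6 and 24.8 RPKM in 2-DG libraries, a difference of -1.58 (standard error 0.14, limma adjusted p = 5.9e-05). PCK2, the mitochondrial PEP carboxykinase and an ATF4 target, had 27.1, 28.4 and 28.2 RPKM in Nala libraries, against 53.1, 56.8 and 58.99 RPKM in 2-DG libraries, a difference of -0.99 (standard error 0.085, limma adjusted p = 4.4e-05). SLC16A7, the monocarboxylate carrier MCT2, was higher, with 11.6, 8.903 and 9.32 RPKM in Nala libraries, against 5.81, 5.17 and 4.94 RPKM in 2-DG libraries and a difference of 0.84 (standard error 0.16, limma adjusted p = 0.00309). The main lactate carriers were not called: SLC16A1, MCT1, differed by 0.02 (95% interval -0.20 to 0.24, limma adjusted p = 0.884) and SLC16A3, MCT4, by 0.13 (95% interval -0.08 to 0.34, limma adjusted p = 0.302). Both intervals lie within 1.5-fold.

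The glucose sensors MondoA and ChREBP, their partner MLX and their targets were lower in Nala for 4 of 9, against 18.5% of all genes. None was higher (1 without NC replicate 1), and the median was -0.26. TXNIP, an arrestin that restrains glucose uptake, had 9.83, 12.1 and 13.2 RPKM in Nala libraries, against 56.4, 61.7 and 63.7 RPKM in 2-DG libraries, and NC libraries had 30.1, 16.7 and 12.2 RPKM. The NC libraries differed widely among themselves, and Nala minus 2-DG was -2.34 (standard error 0.29, limma adjusted p = 0.00033). ARRDC4, its close relative, had 0.152, 0.185 and 0.111 RPKM in Nala libraries, against 3.33, 3.27 and 3.66 RPKM in 2-DG libraries, a difference of -1.94 (standard error 0.17, limma adjusted p = 4.4e-05), and MLXIPL, which codes for ChREBP, had 33.4, 37.9 and 36.8 RPKM in Nala libraries, against 103, 84.3 and 85.6 RPKM in 2-DG libraries. All 3 were higher in every 2-DG library than in any Nala or NC library.

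**Figure D3:**
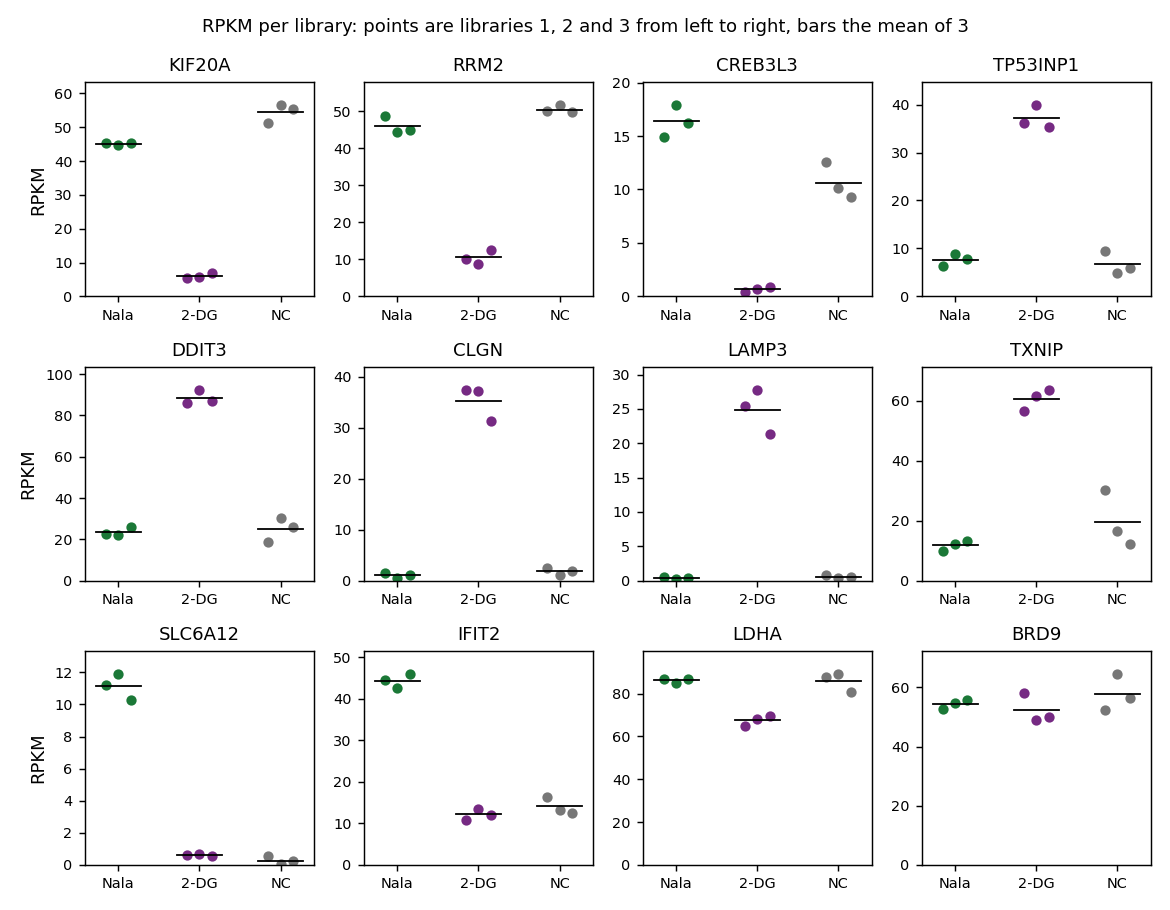
RPKM in each library for 12 genes, with Nala at the left of each panel, 2-DG in the middle and NC at the right. Points are libraries 1, 2 and 3 and bars the mean of 3, on axes that start at 0. KIF20A and RRM2 are low in 2-DG alone, CLGN and DDIT3 are high in 2-DG alone, SLC6A12 and IFIT2 are high in Nala alone, and BRD9 is level.

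BRD9, the bromodomain subunit of the non-canonical BAF complex, was not called and lay within 1.5-fold. It had 52.7, 54.6 and 55.8 RPKM in Nala libraries, against 58.1, 48.99 and 50.04 RPKM in 2-DG libraries, and NC libraries had 52.3, 64.6 and 56.3 RPKM. The libraries overlapped, and the difference was 0.04 (95% interval -0.20 to 0.28, limma adjusted p = 0.769). Of 26 tested SWI/SNF subunits 6 were higher in Nala and 2 lower, against 18.2% and 18.5% of all genes, with a median of 0.03. SMARCA4, the ATPase BRG1, had 52.9, 53.7 and 52.6 RPKM in Nala libraries, against 32.7, 27.1 and 28.8 RPKM in 2-DG libraries, a difference of 0.83 (standard error 0.10, limma adjusted p = 0.00036). DPF1, a subunit known from neurons, had 5.25, 7.54 and 7.78 RPKM in Nala libraries, against 1.03, 0.714 and 1.119 RPKM in 2-DG libraries, a difference of 1.92 (standard error 0.20, limma adjusted p = 0.00012). BCL7A, a small accessory subunit, differed by -0.51 (standard error 0.13, limma adjusted p = 0.0128), which missed the threshold without Nala replicate 1 (adjusted p = 0.115). The 6 fell to 3 without Nala replicate 1, without NC replicate 3 and without 2-DG replicate 1. The 2 became 0 without Nala replicate 1, 4 without 2-DG replicate 1, and 1 without NC replicate 3 or either of the other 2-DG libraries.

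Of 10 writers named for lactylation or acetylation none was higher in Nala and 3 were lower, and of 8 erasers 4 were higher and 2 lower, against 18.2% of all genes higher and 18.5% lower. The median over the 18 was -0.04, and their differences lay between -0.50 and 0.48. EP300, the acetyltransferase p300, had 33.9, 32.2 and 32.3 RPKM in Nala libraries, against 30.3, 30.9 and 32.8 RPKM in 2-DG libraries, a difference of 0.08 (95% interval -0.14 to 0.29, limma adjusted p = 0.566). SIRT6 had 21.6, 24.4 and 23.6 RPKM in Nala libraries, against 31.4, 32.2 and 34.5 RPKM in 2-DG libraries, a difference of -0.50 (standard error 0.11, limma adjusted p = 0.0063), and HDAC8 had 21.5, 21.1 and 21.9 RPKM in Nala libraries, against 13.8, 14.4 and 17.4 RPKM in 2-DG libraries, a difference of 0.48 (standard error 0.12, limma adjusted p = 0.0132). These deacylases lay apart in opposite directions by about the same amount. Neither was called without Nala replicate 1 (adjusted p = 0.0728 and 0.084), when 1 member of the list was higher and 1 lower. Without 2-DG replicate 2 the lower members numbered 3.

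Of 6 genes of osmolyte uptake and synthesis, 3 were higher in Nala and 1 was lower, against 18.2% and 18.5% of all genes. SLC6A12, the betaine carrier at chr12:183848-214157 of GRCh38.p14, had 11.2, 11.9 and 10.3 RPKM in Nala libraries, against 0.645, 0.699 and 0.532 RPKM in 2-DG libraries, and NC libraries had 0.532, 0.0436 and 0.2301 RPKM. It was under 1 RPKM in every 2-DG and NC library, and Nala minus 2-DG was 2.91 (standard error 0.20, limma adjusted p = 1.3e-05). Nala minus NC was 3.28 (limma adjusted p = 0.00014) and 2-DG minus NC was 0.37 (limma adjusted p = 0.111). SLC5A3, the myo-inositol carrier, had 24.4, 18.9 and 18.7 RPKM in Nala libraries, against 14.4, 11.96 and 12.6 RPKM in 2-DG libraries, with Nala replicate 1 the highest, and its difference of 0.69 (standard error 0.15, limma adjusted p = 0.00784) was not called without that library (adjusted p = 0.099). Its exons overlap MRPS6. SLC5A11, a second myo-inositol carrier, was the lower gene, with 0.303, 0.648 and 0.294 RPKM in Nala libraries, against 1.39, 1.14 and 1.27 RPKM in 2-DG libraries, a difference of -0.71 (standard error 0.20, limma adjusted p = 0.019) that was not called without Nala replicate 1 (adjusted p = 0.137) or 2-DG replicate 3 (adjusted p = 0.0502).

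Aldose reductase, AKR1B1, which makes sorbitol, ran in steps. It had 173, 173 and 169 RPKM in Nala libraries, against 148, 152 and 151 RPKM in 2-DG libraries, and NC libraries had 112, 122 and 115 RPKM. Nala minus 2-DG was 0.19 (standard error 0.056, limma adjusted p = 0.025), Nala minus NC was 0.56 (limma adjusted p = 0.00594) and 2-DG minus NC was 0.37 (limma adjusted p = 0.0004). Every 2-DG library thus stood above every NC library and below every Nala library. The difference between Nala and 2-DG was not called without Nala replicate 1 (0.18), 2-DG replicate 2 or 2-DG replicate 3. Nor was it called with no filter, with no trend or with voom. NFAT5 itself differed by 0.14 (95% interval -0.09 to 0.38, limma adjusted p = 0.312). Of the 20 tested osmotic genes 7 were higher in Nala and 2 lower, against 18.2% and 18.5% of all genes. Their median was 0.17, and 13 of the 20 lay within 1.5-fold. The 7 fell to 2 without Nala replicate 1 and to 4 without 2-DG replicate 3, and the 2 to 1 without either. The first letters of the NFAT5 site, TGGAAA, were in 2 of 14 promoters of the list, 14.3%, and in 14.7% of all 9891.

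Interferon-stimulated genes were higher in Nala for 15 of 34 members and lower for 1, against 18.2% and 18.5% of all genes. Their median was 0.29. The effectors held 14 of the higher genes, of 26, with a median of 0.66. IFIT2, an RNA-binding antiviral protein, had 44.5, 42.6 and 46.02 RPKM in Nala libraries, against 10.9, 13.5 and 12.1 RPKM in 2-DG libraries, and NC libraries had 16.4, 13.3 and 12.5 RPKM. The Nala libraries stood above both other groups, which overlapped, and Nala minus 2-DG was 1.79 (standard error 0.13, limma adjusted p = 2.3e-05). IFIT3 had 47.1, 49.97 and 52.5 RPKM in Nala libraries, against 14.5, 21.3 and 19.1 RPKM in 2-DG libraries, a difference of 1.39 (standard error 0.15, limma adjusted p = 0.00014). Nala minus NC was 1.60 (limma adjusted p = 0.00203) for IFIT2 and 1.22 (limma adjusted p = 0.0191) for IFIT3. For IFIT2 and IFIT3, therefore, NC lay with 2-DG.

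Other interferon genes placed NC elsewhere. IFI44, a cytoplasmic antiviral protein, had 38.6, 37.7 and 40.7 RPKM in Nala libraries, against 11.2, 13.4 and 13.7 RPKM in 2-DG libraries, and NC libraries, at 24.3, 22.3 and 27.3 RPKM, lay between the groups. OAS3, which makes the activator of RNase L, had 26.3, 27.9 and 26.7 RPKM in Nala libraries, against 11.97, 9.76 and 11.4 RPKM in 2-DG libraries, and NC libraries, at 25.7, 24.8 and 26.98 RPKM, lay with Nala. Nala minus 2-DG was 1.54 (standard error 0.12, limma adjusted p = 2.8e-05) for IFI44 and 1.21 (standard error 0.11, limma adjusted p = 5.7e-05) for OAS3. Genes of 1 list thus differed in whether NC libraries stood by 2-DG, by Nala or between them. ISG15, a ubiquitin-like modifier, differed by 0.12 (95% interval -0.24 to 0.49, limma adjusted p = 0.594). STAT2, a subunit of the interferon factor, was the member lower in Nala, with 37.7, 38.4 and 39.01 RPKM in Nala libraries, against 78.02, 68.9 and 67.3 RPKM in 2-DG libraries and a difference of -0.88 (standard error 0.10, limma adjusted p = 0.00023). Genes of MHC class I, which interferon also raises, were higher for 1 of 8 and lower for 2, against 18.2% and 18.5% of all genes. None was called without Nala replicate 1, nor was any higher without 2-DG replicate 2 or 3.

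The interferon response element (ISRE), searched as GAAANNGAAA on both strands, stood in 20 of 28 tested promoters of the list, 71.4%, in 9 of 12 of those called, 75.0%, and in 2.49% of all 9891. The share in promoters of all genes called higher in Nala was 2.73% and in those called lower 2.69%. IFIT1, with 20.3, 19.3 and 19.9 RPKM in Nala libraries, against 4.75, 6.695 and 6.12 RPKM in 2-DG libraries and a difference of 1.62 (standard error 0.16, limma adjusted p = 0.00011), and IFIT3 hold 2 matches each and IFI44 1. All are on the opposite strand to the gene and read TTTC as printed. IFIT1, IFIT2 and IFIT3 overlap LIPA in the annotation.
IFIT1 chr10:89392477-89392559 (plus strand): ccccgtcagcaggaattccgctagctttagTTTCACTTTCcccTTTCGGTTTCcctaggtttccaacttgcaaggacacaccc
IFIT3 chr10:89327811-89327914 (plus strand): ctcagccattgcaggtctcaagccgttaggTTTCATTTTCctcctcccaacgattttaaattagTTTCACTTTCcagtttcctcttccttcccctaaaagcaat
IFI44 chr1:78649741-78649810 (plus strand): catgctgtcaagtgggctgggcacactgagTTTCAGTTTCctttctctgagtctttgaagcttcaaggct

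All 17 genes called between Nala and NC were higher in Nala, beside 716 genes, 5.64%, at an unadjusted p under 0.05. Of these 17, 12 were also called higher in Nala than in 2-DG. THPO, thrombopoietin, the platelet hormone made by liver, had 6, 7.92 and 5.996 RPKM in Nala libraries, against 0.357, 0.424 and 0.4297 RPKM in 2-DG libraries, and NC libraries had 1.38, 1.18 and 1.34 RPKM. It was called in both directions from NC, with Nala minus NC 1.70 (limma adjusted p = 0.00441) and 2-DG minus NC -0.71 (limma adjusted p = 0.00343). ZC3HAV1, an antiviral RNA-binding protein, had 51.4, 53.7 and 54.3 RPKM in Nala libraries, against 30.2, 31.6 and 29.1 RPKM in 2-DG libraries, and NC libraries had 33.9, 36.7 and 35.7 RPKM, with the same order of groups. MALT1, a protease of NF-kB signalling, and HERC5, the ligase of ISG15, differed from 2-DG by 0.93 (standard error 0.12, limma adjusted p = 0.00038) and 0.96 (standard error 0.15, limma adjusted p = 0.00108).

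Other genes of the 17 rested on less. PPIAP46, at 36.6, 36.9 and 37.4 RPKM in Nala libraries, against 4.94, 4.68 and 5.07 RPKM in 2-DG libraries, is a processed pseudogene of the abundant PPIA with near-identical copies and overlaps CYP11A1, so its reads may belong elsewhere. MYH15, a myosin heavy chain, had 3.5, 2.404 and 2.53 RPKM in Nala libraries, against 0.0684, 0.108 and 0.0219 RPKM in 2-DG libraries, which are 3, 5 and 1 reads in the 2-DG libraries. GALNT9, a brain mucin-type glycosyltransferase, and PSD4, an ARF exchange factor, completed the 12 with AKR1B1, IFIT2, IFIT3 and SLC6A12, at 0.86 (standard error 0.18, limma adjusted p = 0.00538) and 0.39 (standard error 0.13, limma adjusted p = 0.0421). PSD4 was not called against 2-DG with Nala replicate 1 left out (adjusted p = 0.198), nor with several other libraries left out. Against NC, 15 of the 17 lost the call without Nala replicate 1, 11 without NC replicate 2 or NC replicate 3, 10 without 2-DG replicate 3, 8 without NC replicate 1 and 6 without 2-DG replicate 2. With no trend, a pseudocount of 0.1 or the filter over 9 libraries 9 lost it, and SLC6A12 and PPIAP46 kept it under every alternative run.

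The other 5 of the 17 were not called between Nala and 2-DG, and 2-DG was called higher than NC for each. EREG, the growth factor epiregulin, had 21.8, 23.1 and 22.6 RPKM in Nala libraries, against 24.6, 24.4 and 25.2 RPKM in 2-DG libraries, and NC libraries had 13.1, 11.02 and 11.2 RPKM. ACSS2, which makes acetyl-CoA from acetate, had 51.3, 56.6 and 58.2 RPKM in Nala libraries, against 54.8, 46.8 and 53.5 RPKM in 2-DG libraries, and NC libraries had 31.8, 31.2 and 35.1 RPKM. AKR1C1, a ketosteroid reductase and NRF2 target with near-identical family members, had 14.5, 13.6 and 15.5 RPKM in Nala libraries, against 8.79, 16.6 and 15.2 RPKM in 2-DG libraries, with 4.26, 4.42 and 4.75 RPKM in NC libraries. In these 3 genes every Nala and 2-DG library lay above every NC library. Nala minus 2-DG was -0.14 (95% interval -0.38 to 0.10, limma adjusted p = 0.327) for EREG and 0.07 (95% interval -0.15 to 0.29, limma adjusted p = 0.595) for ACSS2, both within 1.5-fold, and 0.14 (95% interval -0.35 to 0.64, limma adjusted p = 0.648) for AKR1C1, whose interval was wider. SNORD63, a small nucleolar RNA inside HSPA9, differed by -0.05 (95% interval -0.49 to 0.40, limma adjusted p = 0.871).

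**Figure D4:**
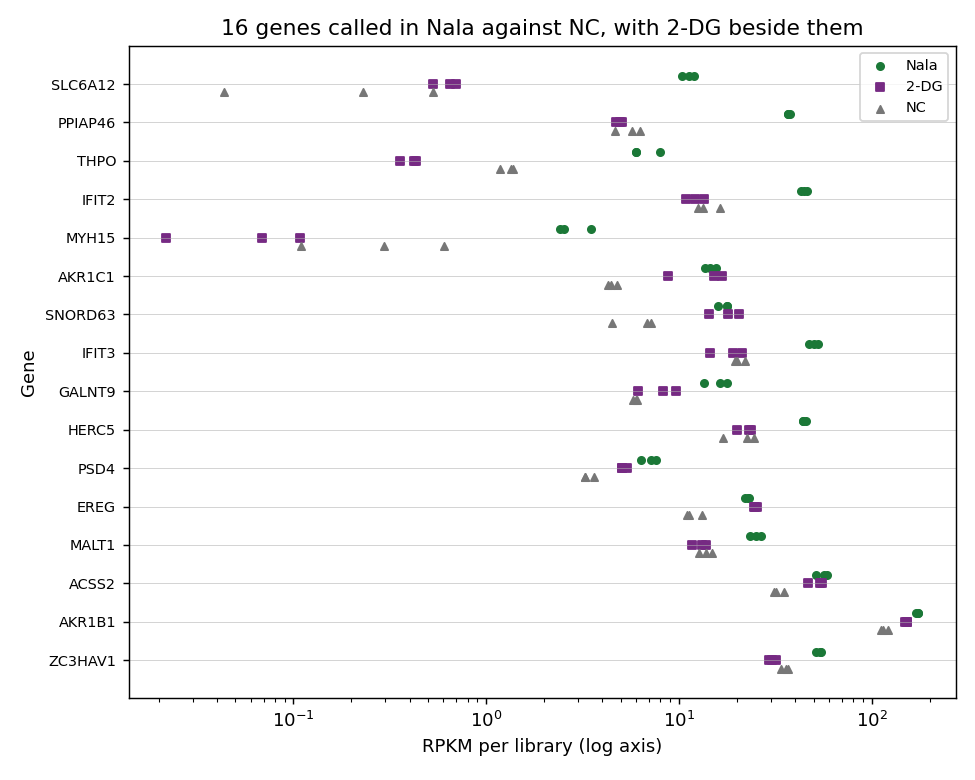
RPKM per library, on a log axis, of 16 of the 17 genes called higher in Nala than in NC, with Nala as circles, 2-DG as squares and NC as triangles. SLC6A12 and PPIAP46 have Nala libraries apart from both other groups, and EREG, ACSS2 and AKR1C1 have Nala and 2-DG together above NC.

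The 10 largest differences in each direction were picked among called genes that averaged 10 RPKM or more in the higher group, with no overlap. A large difference on this scale needs a far lower level in the other group, so that trait follows from the choice of genes. Among those lower in Nala, LCN2, lipocalin 2, an iron-carrier protein of acute inflammation, had 1.67, 0.375 and 0.125 RPKM in Nala libraries, against 39.8, 35.7 and 44.5 RPKM in 2-DG libraries, a difference of -4.48 (standard error 0.31, limma adjusted p = 1.5e-05). LAMP3, a lysosomal membrane protein that ER stress raises, had 0.556, 0.225 and 0.4499 RPKM in Nala libraries, against 25.4, 27.8 and 21.3 RPKM in 2-DG libraries, a difference of -4.16 (standard error 0.18, limma adjusted p = 3.8e-06). CLDN1, a tight junction claudin, and KLHDC7B, a kelch protein, differed by -4.10 (standard error 0.21, limma adjusted p = 4.2e-06) and -3.97 (standard error 0.18, limma adjusted p = 3.8e-06). In NC libraries all 4 were under 3 RPKM, so that 2-DG libraries stood alone. The next were TRIM22, COL6A2, ACTA2, FGF21 and CALML6, between -3.46 and -3.21. ACTA2 overlaps FAS, a p53 target, and CLDN1 overlaps CLDN16.

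Among genes higher in Nala, CREB3L3, a liver factor released from the ER that in mouse drives FGF21 and lipid genes, had 14.9, 17.9 and 16.2 RPKM in Nala libraries, against 0.3697, 0.701 and 0.889 RPKM in 2-DG libraries, a difference of 3.37 (standard error 0.18, limma adjusted p = 4.6e-06). CCL26, an eosinophil chemokine, had 28.6, 25.4 and 25.9 RPKM in Nala libraries, against 0.861, 1.36 and 2.48 RPKM in 2-DG libraries, a difference of 3.50 (standard error 0.27, limma adjusted p = 2.8e-05). CGA, the shared subunit of glycoprotein hormones, had 14.8, 17.3 and 16.4 RPKM in Nala libraries, against 0.382, 0.181 and 0.551 RPKM in 2-DG libraries, a difference of 3.62 (standard error 0.48, limma adjusted p = 0.00051). NC libraries held all 3 genes well above 2-DG, with 12.6, 10.1 and 9.29 RPKM for CREB3L3. PTGS1, CA9 and ALPI also stood in this set, but their NC libraries were uneven, as were those of CGA. CA9, the carbonic anhydrase that hypoxia raises, had 31.1, 24.2 and 7.83 RPKM in Nala libraries, against 1.87, 0.984 and 2.396 RPKM in 2-DG libraries, and NC libraries had 58.2, 16.02 and 10.5 RPKM. Nala replicates 2 and 3 differed at CA9, with 250 and 81 reads, and there too they were averaged as 1 sample. The spread of NC in CA9 was wider than the gap between its Nala and NC means. PIMREG, PIF1, DLGAP5 and SLC6A12 made up the 10.

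NF-kB and inflammation genes were lower in Nala for 13 of 26 and higher for 2, against 18.5% and 18.2% of all genes. Their median was -0.37. CXCL2, a neutrophil chemokine, had 2.701, 2.502 and 3.25 RPKM in Nala libraries, against 31.2, 21.6 and 21.4 RPKM in 2-DG libraries, a difference of -2.74 (standard error 0.25, limma adjusted p = 6e-05), and RELB, a subunit of NF-kB, had 3.19, 3.04 and 3.76 RPKM in Nala libraries, against 21.7, 25.2 and 25.4 RPKM in 2-DG libraries, a difference of -2.54 (standard error 0.28, limma adjusted p = 0.00017). Each 2-DG library of both was more than 5-fold above every Nala library. The 13 fell to 7 without Nala replicate 1. Lysosome and autophagy genes were lower in Nala for 14 of 40 and higher for 2, against the same shares of all genes. Their median was -0.20, and 25 of the 40 lay within 1.5-fold. The 14 fell to 4 without Nala replicate 1, to 9 without 2-DG replicate 2 and to 8 without 2-DG replicate 3. WIPI1, an early autophagy protein, had 10.3, 11.3 and 12.3 RPKM in Nala libraries, against 24.5, 29.1 and 27.7 RPKM in 2-DG libraries, a difference of -1.22 (standard error 0.17, limma adjusted p = 0.00064). OPTN, an autophagy receptor, differed by -0.63 (standard error 0.10, limma adjusted p = 0.00173). TFEB, the factor that drives lysosome genes, was higher, with 7.99, 11.4 and 10.7 RPKM in Nala libraries, against 4.85, 5.48 and 4.54 RPKM in 2-DG libraries and a difference of 0.81 (standard error 0.17, limma adjusted p = 0.00653), as was GLA, an alpha-galactosidase, by 0.90 (standard error 0.077, limma adjusted p = 4.4e-05). The 2 higher members became 4 without NC replicate 1.

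Matrix and mesenchymal genes were higher in Nala for 12 of 30 and lower for 5, against 18.2% and 18.5% of all genes. Their median was 0.34. COL3A1, a fibrillar collagen, had 12.9, 11.5 and 12.7 RPKM in Nala libraries, against 2.497, 1.62 and 1.02 RPKM in 2-DG libraries, a difference of 2.35 (standard error 0.22, limma adjusted p = 6.9e-05), and FN1, fibronectin, had 47.8, 42.8 and 41.05 RPKM in Nala libraries, against 23.5, 19.2 and 13.7 RPKM in 2-DG libraries, a difference of 1.24 (standard error 0.19, limma adjusted p = 0.00107). COL6A2, a microfibrillar collagen, went the other way, with 0.988, 1.83 and 1.26 RPKM in Nala libraries, against 30.4, 24.3 and 17.4 RPKM in 2-DG libraries. Collagens thus lay far apart in both directions. The 5 fell to 3 without Nala replicate 1. Fatty acid genes were higher for 11 of 29 and lower for 3, against the same shares of all genes. Of the 11, 10 were among the 17 genes of synthesis. SREBF1, the factor that drives them, had 56.3, 62.1 and 60.7 RPKM in Nala libraries, against 38.9, 24.6 and 31.6 RPKM in 2-DG libraries, a difference of 0.90 (standard error 0.15, limma adjusted p = 0.00216). PPARA, which drives oxidation, was lower, with 4.58, 5.22 and 4.88 RPKM in Nala libraries, against 8.55, 12.4 and 11.4 RPKM in 2-DG libraries and a difference of -1.0 (standard error 0.25, limma adjusted p = 0.0115) that was not called without Nala replicate 1 (adjusted p = 0.0863). The 11 fell to 5 and the 3 to 0 when that library was left out.

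Ribosomal protein genes were lower in Nala for 16 of 73, close to the 18.5% of all genes. They were higher for 1, against 18.2% of all genes, and their median was -0.17. Libraries did not overlap with Nala lower for 39 of the 73, against 29.8% of all genes, and 65 lay within 1.5-fold. The count of lower members was 29 with the 3 Nala libraries kept apart and 8 with voom on recovered reads. Over libraries left out it ran between 4 without Nala replicate 1 and 31 without 2-DG replicate 1, and was 10 without NC replicate 3, 7 without 2-DG replicate 2 and 8 without 2-DG replicate 3. The 1 higher became 0 without Nala replicate 1 or 2-DG replicate 2. RPS27 had 49.4, 54.9 and 58.7 RPKM in Nala libraries, against 71.7, 88.5 and 90.2 RPKM in 2-DG libraries, the largest difference of the list at -0.64 (standard error 0.12, limma adjusted p = 0.0026). Of 65 OXPHOS subunits 5 were higher and 2 lower, below the 18.2% and 18.5% of all genes, with a median of 0.07. The 5 became 9 with the 3 Nala libraries kept apart. The 5 fell to 1 and the 2 to 1 without Nala replicate 1, the 5 to 3 and the 2 to 1 without NC replicate 3, and the 2 to 1 without NC replicate 2, Nala replicate 3 or 2-DG replicate 2 or 3. MYC, the growth regulator that drives ribosome and glycolysis genes, had 81.9, 82.9 and 81.2 RPKM in Nala libraries, against 77.1, 61.4 and 79.01 RPKM in 2-DG libraries, a difference of 0.18 (95% interval -0.08 to 0.45, limma adjusted p = 0.256).

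Markers of other cell types were read in the same libraries. Summed RPKM of the 9 ductal genes in the table ran from 348.5 to 362.2 in Nala, from 280.1 to 307.0 in 2-DG and from 336.0 to 359.2 in NC. The 7 fibroblast genes summed to between 61.7 and 70.3 in Nala, 33.4 and 51.0 in 2-DG and 45.4 and 86.2 in NC, and their member COL3A1 is in the matrix list above. The 7 immune genes summed to between 26.5 and 28.8 in Nala, 9.803 and 16.2 in 2-DG and 25.8 and 29.2 in NC, most of it CD68, which lysosomes of many cells carry, with PTPRC, the leukocyte marker CD45, near 0. The 6 endothelial genes summed to between 73.2 and 75.05 in Nala, 41.7 and 57.9 in 2-DG and 67.8 and 72.6 in NC, mostly ENG. The 16 hepatocyte genes summed to between 66.3 and 81.8 in Nala, 41.9 and 48.6 in 2-DG and 64.1 and 116.7 in NC. Most of each sum was VTN and CEBPA. Of 3 tested secreted members 2 were higher in Nala and none lower. Of 3 tested regulators none was higher and FOXA1 was lower, a call lost without Nala replicate 1. No marker was at 0 in all 9 libraries. In that order 3, 2, 4, 4 and 7 markers were under 1 RPKM in all. In 2-DG each of the 5 sums lay below its range in Nala, and below that in NC but for the fibroblast sum, which overlapped. Their part in the lists above was not tested.

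**Figure D5:**
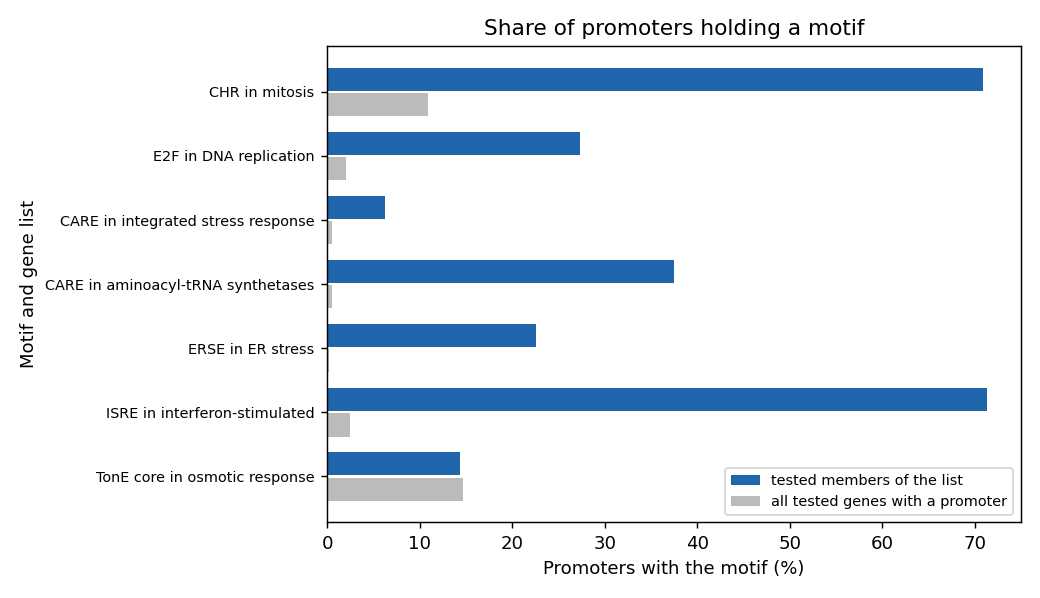
Percent of promoters, 250 bases before to 50 after the start, that hold a motif, for tested members of a gene list in blue and for all 9891 promoters of tested genes in grey. CHR in mitosis (70.9%) and ISRE in interferon-stimulated genes (71.4%) stand far above their share in all promoters, and the NFAT5 letters (TonE core) do not.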

How the data were processed

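RNA-seq of 9 libraries was used. Library names in the labels gave group and replicate number, also for Nala replicate 1, whose treatment label is garbled, while 6 samples of ChIP-seq and 2 of ATAC-seq were left aside. Values are RPKM as the authors deposited them. The submitters' processing notes name the build hg38 and, with no role or order for each assay, fastp 0.23.1 and DESeq, STAR 2.7.6a, HISAT2 2.1.0 and Bowtie2 2.2.5, RSEM 1.2.8, then HOMER 4.8.3 beside MACS2 2.2.7.1. How RPKM was computed, and whether strand or repeated reads were considered, no source used here states. The steps between low RPKM values gave whole reads for 100% of values, within 0.0001 reads.

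Values were taken as log2(RPKM + 1), so that changes of low genes are understated. Nala, 2-DG and NC were fitted together in limma 3.58.1 under R 4.3.3, its prior variance following intensity. Nala replicates 2 and 3 were averaged, which left 5 residual degrees of freedom. Benjamini-Hochberg adjustment ran over the 12684 genes, with 0.05 as the threshold of a call. The chi-square test compared recovered reads where they averaged 10 or more. RPKM is not a count, so that no count model was the main test. The fit was also run on simulated data with 200 changed genes and the same spread set for every gene. The real replicate pairs differed in spread, so no conclusion is drawn from that run. Tables and figures were made in Python 3.11.15.

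Members and gene lists were chosen with earlier results of these data known. Named are the 10 largest differences in each direction among called genes whose higher group averaged 10 RPKM or more with no overlap, the 3 called members of each list with the largest difference, 16 followed genes, and genes called between Nala and NC. Other members were named after their values were seen. Some genes that the rule names are not reported here. Promoters are from RefSeq GRCh38.p14 and were found for 9891 tested genes. Alternatives were filters of 5 RPKM, over 9 libraries or none, 0.1 as pseudocount, 3 scalings, no trend, Nala and 2-DG alone, the 3 Nala libraries kept apart, a replicate block, voom on recovered reads and each library left out. As the labels do not say more than biological replicates, p-values measure the spread between these libraries.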

Additional observations from a re-analysis of the deposited data

How the results depend on the processing

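Of the counts over all genes, the 4646 genes called between Nala and 2-DG, their 2303 higher and 2343 lower, the 1031 past 2-fold and the 5557 called between 2-DG and NC moved by less than 1.5 times under every alternative that kept all libraries. With libraries left out in turn the 4646 ran from 2255, without Nala replicate 1, to 5278, the higher count from 1215 to 2473 and the lower from 1040 to 2824. Without Nala replicate 1 the averaged pair is a lone sample, assumed to vary like the other groups. The 5811 genes alike within 1.5-fold became 9696 with no filter on low values, since that setting tests more genes, and ran from 4119 to 6043 over libraries left out. The 17 genes called between Nala and NC became 8 with a pseudocount of 0.1, 8 with the filter over 9 libraries, 9 with no trend, 67 with the Nala libraries kept apart, 33 with the replicate block and 55 with voom on recovered reads, and ran from 2 to 23 over libraries left out (7 without NC replicate 2, NC replicate 3 or 2-DG replicate 3). The cause of these shifts was not tested. With replicate number as a block, Nala libraries kept apart, 5722 genes were called between Nala and 2-DG, against 5851 kept apart with no block. Deviations of libraries with the same number correlated at 0.089, 0.011 and 0.055, so the numbers were not taken to pair them. Of 80 counts of list members called higher or lower, 11 moved by over 1.5 times with the Nala libraries kept apart, 15 with the replicate block, 7 with no trend, 7 with the filter of 5 RPKM and 4 with voom. Under the block 13 OXPHOS, 16 proteasome, 10 cholesterol, 9 NRF2 and 6 WNT members were higher, and 29 ribosomal protein and 7 NRF2 members lower. No direction of a named gene was reversed where it was called. Of 211 genes followed between Nala and 2-DG, 47 changed their call under some alternative and 44 lost it without Nala replicate 1. Over all genes the median difference stayed within 0.04 of that reported under each scaling. Depth limits low genes most: 1 read of a short gene is a large part of 1 RPKM, and the highest level in the table is 229.6 RPKM.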

Other observations

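Further gene groups are given here, against 18.2% of all genes called higher in Nala and 18.5% called lower. Of 19 immediate early genes 6 were lower in Nala and 1 higher. ATF3, a stress-induced factor, had 13.5, 13.2 and 13.8 RPKM in Nala libraries, against 43.5, 53.05 and 47.1 RPKM in 2-DG libraries, a difference of -1.75 (standard error 0.12, limma adjusted p = 1.3e-05), and FOS had 6.74, 7.81 and 7.52 RPKM in Nala libraries, against 2.62, 1.91 and 2.23 RPKM in 2-DG libraries, a difference of 1.34 (standard error 0.27, limma adjusted p = 0.00472). MAPK feedback genes were lower for 3 of 15 and higher for 2, near those shares. DUSP2, a nuclear phosphatase of ERK, had 24.98, 36.4 and 35.3 RPKM in Nala libraries, against 7.56, 5.63 and 6.54 RPKM in 2-DG libraries, a difference of 2.04 (standard error 0.20, limma adjusted p = 8e-05), while DUSP5, also a nuclear ERK phosphatase, differed by -1.02 (standard error 0.22, limma adjusted p = 0.00649). Relatives of 1 family thus lay on opposite sides.

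Among 11 EGF family genes 5 were lower in Nala and 1 higher, and AREG, amphiregulin, had 1.56, 1.22 and 1.82 RPKM in Nala libraries, against 5.47, 7.84 and 5.51 RPKM in 2-DG libraries, a difference of -1.50 (standard error 0.19, limma adjusted p = 0.00039). Of 12 tight junction genes 4 were lower and 3 higher. CGN, cingulin, had 4.79, 3.72 and 4.74 RPKM in Nala libraries, against 0.1897, 0.3298 and 0.487 RPKM in 2-DG libraries, a difference of 2.05 (standard error 0.17, limma adjusted p = 3.9e-05), opposite to CLDN1 of the same junction. Of 9 WNT genes 3 were higher and none lower. NOTUM, which inactivates WNT proteins, had 24.5, 31.1 and 32.2 RPKM in Nala libraries, against 13.6, 10.6 and 11.7 RPKM in 2-DG libraries, a difference of 1.16 (standard error 0.19, limma adjusted p = 0.00161). HRK, a death activator of the BCL2 family, had 1.09, 1.88 and 1.31 RPKM in Nala libraries, against 6.84, 8.15 and 8.44 RPKM in 2-DG libraries, a difference of -1.91 (standard error 0.17, limma adjusted p = 5.6e-05), and 4 of 15 members of that family were lower and 1 higher, or 2 higher without NC replicate 1. The higher EGF gene was not called without Nala replicate 1, NC replicate 3 or 2-DG replicate 2 or 3, and 2 were without 2-DG replicate 1. The 4 tight junction genes became 2 without Nala replicate 1.

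Proteasome subunits were higher in Nala for 8 of 30 and none was lower, with a median of 0.19, and 15 were higher with the 3 Nala libraries kept apart. PSMD1 had 57.2, 55.2 and 57.5 RPKM in Nala libraries, against 31.97, 34.1 and 37.5 RPKM in 2-DG libraries, a difference of 0.70 (standard error 0.10, limma adjusted p = 0.00079). The 8 fell to 2 without Nala replicate 1, to 4 without 2-DG replicate 2 and to 5 without NC replicate 3 or 2-DG replicate 3, and 1 was lower without 2-DG replicate 1. Heat shock genes were higher for 6 of 23 and lower for 2, and the 6 and the 2 each fell to 1 without Nala replicate 1. Cholesterol genes were higher for 6 of 31, near the 18.2% of all genes higher, and lower for 1. The 6 fell to 2 and the 1 to 0 without Nala replicate 1, and the 6 to 1 without 2-DG replicate 2 and to 3 without 2-DG replicate 3. MYLIP, the ligase that degrades the LDL receptor, had 11.1, 12.4 and 14.2 RPKM in Nala libraries, against 4.25, 5.08 and 5.46 RPKM in 2-DG libraries, a difference of 1.16 (standard error 0.15, limma adjusted p = 0.00038). NRF2 and pentose phosphate genes were higher for 4 of 26 and lower for 3, with ABCC2, a bile canalicular pump, at 8.64, 9.56 and 10.1 RPKM in Nala libraries, against 4.79, 5.12 and 4.58 RPKM in 2-DG libraries and NC at 3.5, 3.87 and 4.88 RPKM. The 4 became 2 and the 3 became 0 without Nala replicate 1, and the 3 became 6 without NC replicate 1, 5 without 2-DG replicate 1 and 1 without 2-DG replicate 2. Hypoxia genes were higher for 5 of 25 and lower for 4, also near the share of all genes, where the 5 became 3 without Nala replicate 1 and the 4 became 7 without NC replicate 1. Ribosome biogenesis genes were higher for 6 and lower for 4 of 32, or for 1 and 0 without Nala replicate 1 and 2 and 2 without 2-DG replicate 2, and the 4 became 2 without 2-DG replicate 3.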
